A study of Mus musculus with 4 samples.

Results

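The insulin-like growth factor (Igf) genes described here are 9 of the 31053 genes listed in the series: the ligand Igf1, its receptor Igf1r, the receptor's docking protein Irs1, and the binding protein genes Igfbp2, Igfbp3, Igfbp4, Igfbp5, Igfbp6 and Igfbp7. They were chosen by symbol, and all 9 were found in every library. RNA of single cells was measured with the 10x Genomics Chromium 3' v3.1 kit in the oviduct and the uterus of CD1 (ICR) mice at postnatal day 3, wild type and not treated, with 2 libraries per organ. Each library held the dissociated organs of 3 or 4 pooled neonates, and both organs came from the same neonates, so that a library is a pool and not an animal. No group carries an allele, a transgene or a treatment, and the uterus libraries serve as the other side of each oviduct value. Sums over the cells of a class in a library were compared. For organ differences within a class, p-values measure the spread between these pools, 2 against 2. Where classes or their organ effects were compared, the library was a block. Those p-values measure how the difference between classes varies over the libraries.

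Igf1 is a secreted growth factor made by stromal cells of many organs, and it acts on neighbouring cells through Igf1r, a receptor tyrosine kinase. Igf1r binds Irs1, which passes the signal on to phosphoinositide 3-kinase and Akt. The Igf binding proteins are secreted and hold Igf1 and Igf2 outside the cell, and proteases such as Pappa and Htra1 cut some of them and set the ligand free. Igfbp7 binds Igf weakly and is best known as a protein of blood vessels. In the uterus, Igf1 of the stroma is known as a mediator of oestrogen-driven growth of the epithelium.

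Promoter sequences are shown for 5 members on which the results turn most: Igf1, Irs1, Igfbp3, Igfbp4 and Igfbp7, whose levels follow the organ or the class. All 9 members matched the RefSeq promoter table (build GRCm38.p6), whose windows run from 250 bases before to 50 bases from the start site, and all are printed 5′ to 3′ on the gene's own strand. Capitals mark matches on either strand to TATAAA (the TATA box), TATATA (a variant of it), CCAAT (the CCAAT box), GGGCGG (the GC box) and TGTTTAC (a forkhead core); the first 2 can overlap each other, which did not occur in the windows printed. Of the 32851 promoter windows of this length, 13.6% hold TATAAA, 5.67% TATATA, 37.4% CCAAT, 35.7% GGGCGG and 3.65% TGTTTAC. The Igf1 window lies at chr10:87860861-87861160 on the + strand, the Igfbp4 window at chr11:99040994-99041293 on the + strand, the Igfbp3 window at chr11:7213874-7214173 on the - strand, the Irs1 window at chr1:82291390-82291689 on the - strand and the Igfbp7 window at chr5:77407996-77408295 on the - strand.
Igf1: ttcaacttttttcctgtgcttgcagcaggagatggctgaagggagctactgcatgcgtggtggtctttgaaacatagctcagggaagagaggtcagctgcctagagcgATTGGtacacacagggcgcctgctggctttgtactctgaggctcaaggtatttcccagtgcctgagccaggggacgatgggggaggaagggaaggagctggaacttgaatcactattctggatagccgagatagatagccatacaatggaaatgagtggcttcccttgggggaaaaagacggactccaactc
Igfbp4: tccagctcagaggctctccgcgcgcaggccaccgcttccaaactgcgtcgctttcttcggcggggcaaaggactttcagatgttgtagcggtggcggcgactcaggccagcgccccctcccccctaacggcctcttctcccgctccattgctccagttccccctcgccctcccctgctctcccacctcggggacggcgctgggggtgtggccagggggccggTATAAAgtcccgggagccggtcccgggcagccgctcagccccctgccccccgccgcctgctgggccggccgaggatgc
Igfbp3: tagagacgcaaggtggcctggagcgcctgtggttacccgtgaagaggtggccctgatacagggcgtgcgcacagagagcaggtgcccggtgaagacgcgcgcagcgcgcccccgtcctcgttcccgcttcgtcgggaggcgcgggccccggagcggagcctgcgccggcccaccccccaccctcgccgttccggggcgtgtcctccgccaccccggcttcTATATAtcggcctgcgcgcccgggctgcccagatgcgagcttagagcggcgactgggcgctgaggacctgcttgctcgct
Irs1: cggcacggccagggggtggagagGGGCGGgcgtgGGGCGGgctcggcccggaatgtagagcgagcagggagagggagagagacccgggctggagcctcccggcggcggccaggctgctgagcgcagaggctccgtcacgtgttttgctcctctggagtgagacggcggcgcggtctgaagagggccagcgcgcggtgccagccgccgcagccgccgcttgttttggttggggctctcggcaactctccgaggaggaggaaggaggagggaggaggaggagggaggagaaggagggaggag
Igfbp7: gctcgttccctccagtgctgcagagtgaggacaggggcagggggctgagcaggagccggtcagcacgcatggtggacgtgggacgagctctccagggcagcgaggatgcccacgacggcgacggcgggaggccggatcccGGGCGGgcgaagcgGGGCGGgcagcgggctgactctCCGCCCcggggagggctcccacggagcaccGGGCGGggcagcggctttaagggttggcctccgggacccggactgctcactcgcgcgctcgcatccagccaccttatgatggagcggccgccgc

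The Igf1 window stood apart from the other 4 printed in its base composition. It held 52.3% G and C and 6 CG dinucleotides, where the median over all windows was 52.7% and 7. The windows of Igfbp4, Igfbp3, Irs1 and Igfbp7 held 71.3%, 71.7%, 71.3% and 73.3% G and C, with 27, 37, 28 and 33 CG dinucleotides. Of the windows not printed, that of Igfbp6 held 49.7% G and C with 8 CG dinucleotides and that of Igfbp5 56.3% with 10. The Igfbp2 windows held 57.3% with 14 and 67.0% with 18, and the Igf1r window 76.0% with 48. Igfbp4 had TATAAA with its first base 28 bases before the start site, and Igfbp3 had TATATA 30 bases before it. Irs1 and Igfbp7 had neither and held GGGCGG 2 and 4 times (in Igfbp7 once on the other strand), and Igf1 held CCAAT once, on the other strand. TGTTTAC, the forkhead core, was in none of the 9 members' windows. The RefSeq start of Igf1 lies 2846 bases inside the GENCODE M21 gene, which starts further upstream. In that annotation (GRCm38) Igf1 spans chr10:87858265-87937042 (+) and Irs1 chr1:82233101-82291416 (-). Igfbp3 spans chr11:7206086-7213923 (-) with Igfbp1 as its nearest coding gene, 3540 bases away, and Igfbp2 and Igfbp5 are neighbours on chromosome 1 on opposite strands, 5458 bases apart. Igf1, Irs1 and Igfbp7 overlap genes of the other strand: Igf1os (63 UMIs over all class sums), Gm9747 (67), and Polr2b (10387) with Gm34648 (13). Whether the counting used strand is not given in the sources used here, so reads of these pairs could have been exchanged.

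The libraries held 5716 to 7808 called barcodes and 61117726 to 114419939 UMIs (unique molecular identifiers, 1 per captured RNA molecule), and 3846 to 6463 cells were kept. Any pair of libraries shared 8 to 15 barcodes. Cells were put into classes by fixed marker lists that hold no Igf gene, and a class name stands for cells that resemble its list (mesenchyme-like, epithelium-like and so on, shortened to the list's name). The labels name mesenchymal and epithelial cells, and the data also held smooth muscle-like, mesothelium-like, pericyte-like, blood endothelium-like and myeloid-like cells in every library. The mesenchyme had 3350, 2664, 1774 and 1775 cells in oviduct libraries 1 and 2 and uterus libraries 1 and 2, and the epithelium 132, 226, 44 and 55. By the median, oviduct epithelial cells were deeper, with 25326 and 17734 UMIs against 6394 and 3087 in the uterus. The summed mesenchyme markers were at 7933 and 8137 CPM in oviduct mesenchyme and 2917 and 2888 CPM in uterine mesenchyme, where CPM is the UMI count of a gene per 1000000 UMIs of its class sum; the part of this difference in the mesenchymal results was not tested. Mesenchyme and smooth muscle form a range of scores: 23.8% of mesenchymal and 25.6% of smooth muscle cells lay within 0.05 of a threshold, and cells between both were kept apart as intermediate stroma. When all cells were clustered by their expression, the mesenchyme, smooth muscle and epithelium of the 2 organs lay mostly in different clusters. Of the mesenchyme, cluster 1 held 1783 oviduct and 13 uterine cells and cluster 0 held 39 oviduct and 1712 uterine cells. Of the smooth muscle, cluster 3 held 759 oviduct and 2 uterine cells and cluster 4 held 43 oviduct and 839 uterine cells. Of the epithelium, cluster 22 held 225 oviduct and 0 uterine cells, cluster 23 held 37 oviduct and 59 uterine cells and cluster 19, which has no class name of its own, held 96 oviduct and 40 uterine cells. The organs' shares of a class per cluster had 10.9% in common in mesenchyme, 9.76% in smooth muscle and 37.2% in epithelium, and 90.0% to 99.7% in the other 4 classes. An organ difference in those first 3 classes therefore compares cells of largely separate clusters. These shares count cells, and cluster 19 gave few of the epithelial UMIs. Igf1r UMIs, for example, were 5, 5, 1 and 1 in cluster 19 and 85, 7, 135 and 172 in cluster 23, in the order of the libraries above.

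Igf1, the ligand, was highest in smooth muscle, mesothelium and mesenchyme in the oviduct, and highest in blood endothelium and myeloid cells in the uterus. In the mesenchyme it was at 528 and 593 CPM (oviduct) and 53.4 and 51.8 CPM (uterus), so that the organs were apart by far more than the libraries of 1 organ, between cells of largely separate clusters. In smooth muscle it was at 816 and 889 CPM (oviduct) and 171 and 146 CPM (uterus). In the mesothelium, the outer lining of both organs, it was at 591 and 641 CPM (oviduct) and 142 and 149 CPM (uterus). All 3 classes were thus higher in both oviduct libraries than in either uterus library. In pericytes, the contractile cells around small vessels, the levels were 66.0 and 63.4 against 17.0 and 15.1 CPM, oviduct first. Blood endothelium had 268 and 298 against 384 and 309 CPM, both uterus libraries above both oviduct libraries, and myeloid cells had 324 and 234 against 202 and 225 CPM. Over the 7 classes tested, the order by mean in the oviduct was smooth muscle (852 ± 52.1 CPM, SD, n = 2), mesothelium (616 ± 35.9 CPM), mesenchyme (561 ± 46.0 CPM), blood endothelium (283 ± 21.5 CPM), myeloid cells (279 ± 63.7 CPM), pericytes and epithelium. Mesothelium and mesenchyme overlapped, as did endothelium and myeloid cells, and the other neighbours did not. In the uterus the order was blood endothelium (346 ± 52.6 CPM), myeloid cells (214 ± 16.0 CPM), smooth muscle (159 ± 17.5 CPM), mesothelium (146 ± 5.52 CPM), mesenchyme (52.6 ± 1.15 CPM), pericytes and epithelium, and there only smooth muscle and mesothelium overlapped.

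**Figure D1:**
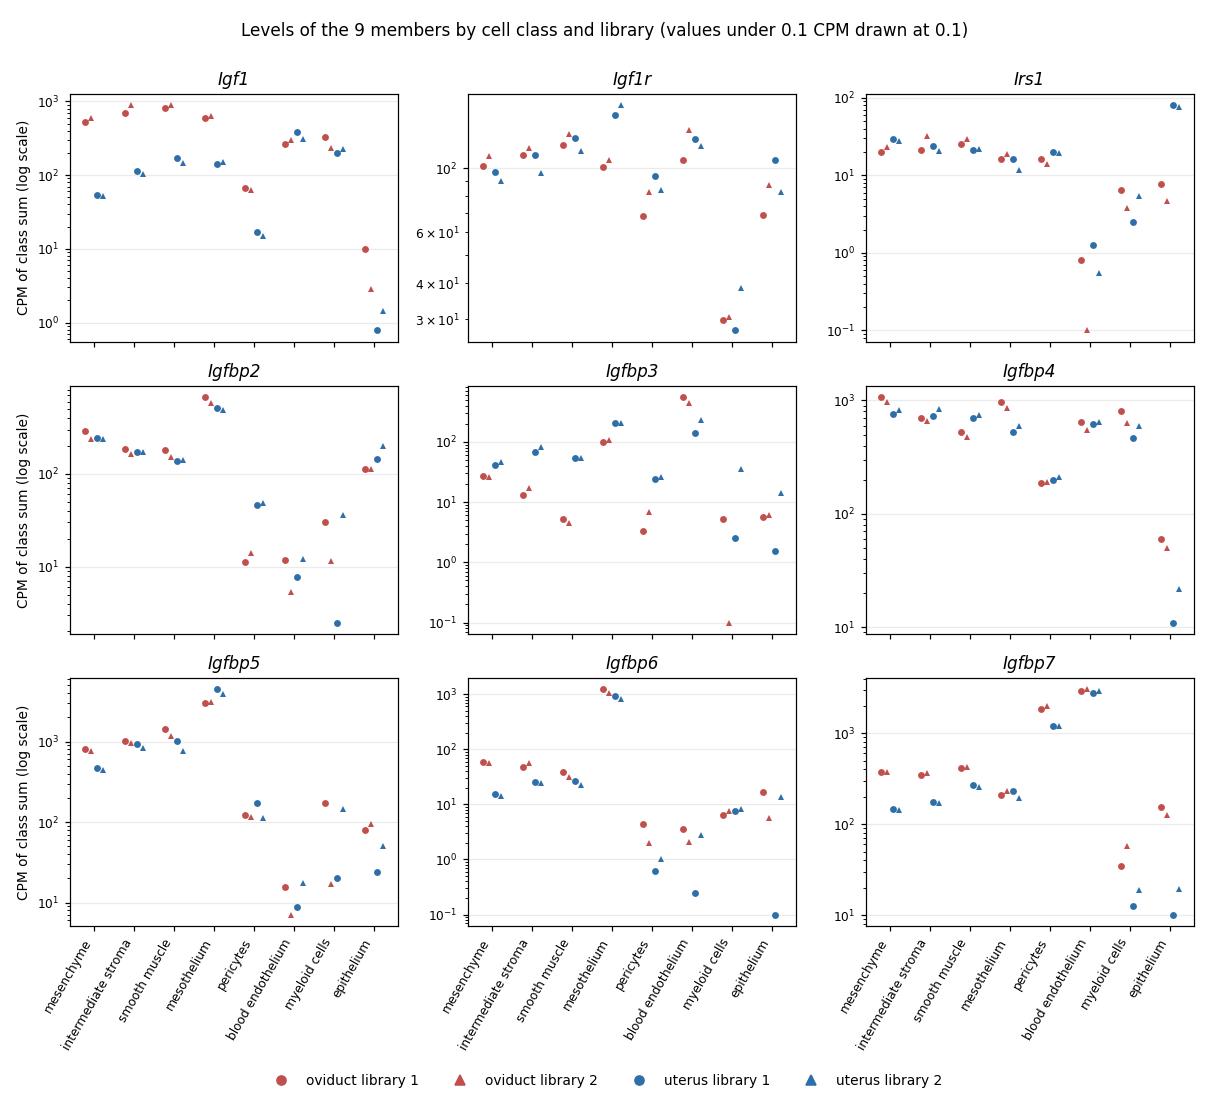
Levels of the 9 Igf genes in 8 cell classes, as CPM of the class sum on a log axis, with 1 point per library (red oviduct, blue uterus; circles library 1, triangles library 2). Igf1 is near 561 CPM in oviduct mesenchyme and 52.6 CPM in uterine mesenchyme, while Igf1r lies between 68.3 and 165 CPM in every class but myeloid cells.

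The organ difference of Igf1 was tested in every class with edgeR on the class sums; here and for the other genes, organ differences with ± are log2 fold changes, oviduct minus uterus, with their standard errors. In the mesenchyme the ratio of the organ means was 10.7, and the log2 fold change, oviduct minus uterus, was 3.36 ± 0.09, adjusted p 6.58e-11. In smooth muscle it was 2.41 ± 0.09, adjusted p 5.57e-09 (ratio 5.37), and in the mesothelium 2.09 ± 0.14, adjusted p 6.22e-06 (ratio 4.23). In pericytes it was 1.98 ± 0.21, adjusted p 4.66e-08 (ratio 4.04). Markers of other classes moved with the organ in some sums, and their part in these and the other genes' values was not tested. In pericyte sums smooth muscle markers were at 2783 and 2889 against 1725 and 1949 CPM, oviduct first, and mesenchyme markers at 1534 and 1679.6 against 1429 and 1323 CPM. In mesothelial sums smooth muscle markers were at 666 and 597 against 1314 and 1262 CPM and mesenchyme markers at 5686 and 5252 against 9195 and 7471 CPM. In myeloid sums mesenchyme markers were at 1219 and 646 against 94.9 and 304 CPM. Within clusters that both organs share, looked at after the data had been seen and not tested, mesenchymal Igf1 differed between the organs in cluster 8, at 389.6 and 409 against 62.3 and 59.7 CPM, oviduct first, but in cluster 6 the levels overlapped, at 274 and 349 against 324 and 262 CPM. These clusters held 62, 108, 117 and 101 and 64, 61, 143 and 180 mesenchymal cells in the 4 libraries. Their Igf1 levels rest on 49, 70, 17 and 14 UMIs in cluster 8 and on 283, 316, 562 and 600 UMIs in cluster 6, so the cells of cluster 8 were much shallower. Whether cluster 8 holds the same kind of cell in both organs was not tested. In smooth muscle Igf1 was at 217 and 538 against 156 and 151 CPM in cluster 4, at 237 and 553 against 276 and 226 CPM in cluster 6, where the organs overlapped, and at 397 and 424 against 25.0 and 51.3 CPM in cluster 8, on 18, 12, 1 and 3 UMIs. The pericyte value was 1.13 with clusters in place of the marker classes and ran from 1.13 to 2.37 over the alternatives. In blood endothelium the difference was -0.26 ± 0.15, adjusted p 0.511, and in myeloid cells 0.34 ± 0.24, adjusted p 0.792; neither passed the threshold of 0.05. A test of the difference of differences, added after the endothelial values had been seen, gave an organ effect in endothelium minus that in mesenchyme of -3.60 ± 0.11, adjusted p 1.27e-18, on the log2 scale. In uterine endothelium at most 0.525% of the Igf1 UMIs could be accounted for by free RNA, estimated from droplets without a cell, and the gene was seen in 71.2% (95% Wilson interval 64.1 to 77.4) and 68.8% (61.9 to 75.0) of the cells of uterus libraries 1 and 2. In uterine epithelium, at median depths of 6394 and 3087 UMIs against 12667 and 15435 in endothelium, the same share was 2.27% and 3.64%. After every cell was thinned to 2500 UMIs, the shares in uterine endothelium were 44.1% and 47.5%, and 0 of 36 and 0 of 34 uterine epithelial cells had a UMI. Mesenchyme markers summed to 56.0 and 81.4 CPM in uterine and 175 and 82.7 CPM in oviduct endothelium. Epithelial Igf1 rested on 72 and 23 oviduct UMIs and 1 and 3 uterine ones, of which free RNA could give 59.6%, 100%, 100% and 81.0%; the fitted value was 2.51 ± 0.82, adjusted p 0.0365, and the call was lost without uterus library 1 (adjusted p 0.0663), without uterus library 2 (0.0727), with the test of DESeq2 (0.0847) and with the stricter cell filter (0.0588). Over the alternatives the value ran from 2.21 to 3.21.

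**Figure D2:**
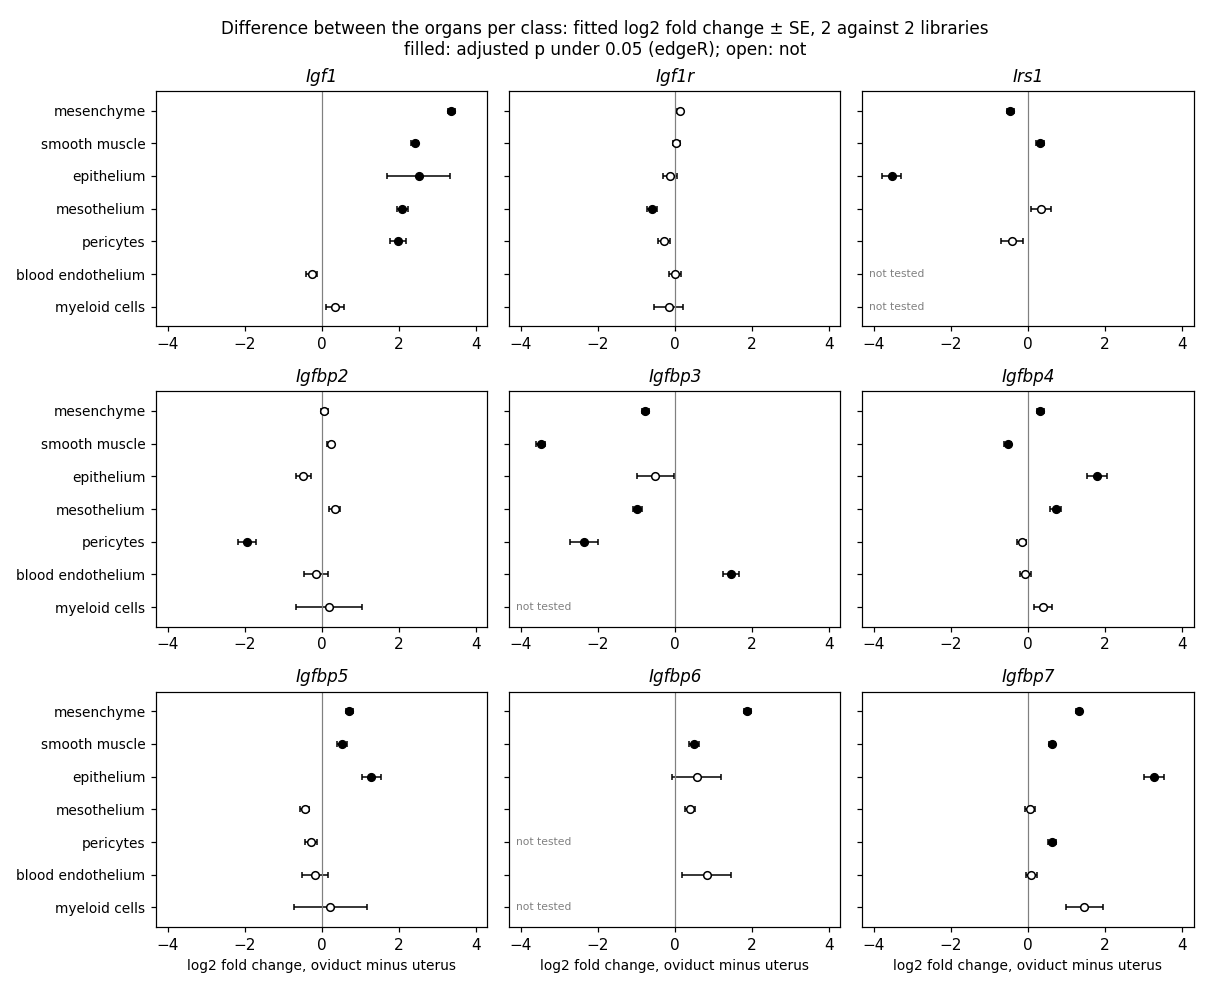
Fitted log2 fold change between the organs (oviduct minus uterus, horizontal axis) with its standard error for each Igf gene in 7 cell classes; filled points passed an adjusted p of 0.05 in edgeR, open points did not, and genes too low for the test are marked. Igf1 is to the right of 0 in the stromal classes and pericytes but not in blood endothelium (-0.26), and Irs1 stands at -3.54 in the epithelium.

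The classes also contributed differently to all Igf1 RNA of an organ. Mesenchyme held 41.7% and 38.7% of the Igf1 UMIs of kept cells in the oviduct, against 21.5% and 21.7% for the uterus. Blood endothelium held 2.43% and 2.33% in the oviduct against 25.4% and 26.5% in the uterus, from 2.38% and 2.48% against 4.602% and 4.41% of the cells. Mesothelium held 16.3% and 15.9% against 2.91% and 3.01%, from 5.80% and 7.53% against 1.48% and 1.14% of the cells. Smooth muscle held 22.6% and 26.4% against 29.9% and 26.0%, and epithelium held at most 0.131% in any library. These shares follow the cells recovered after dissociation as well as the level per cell.

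**Figure D3:**
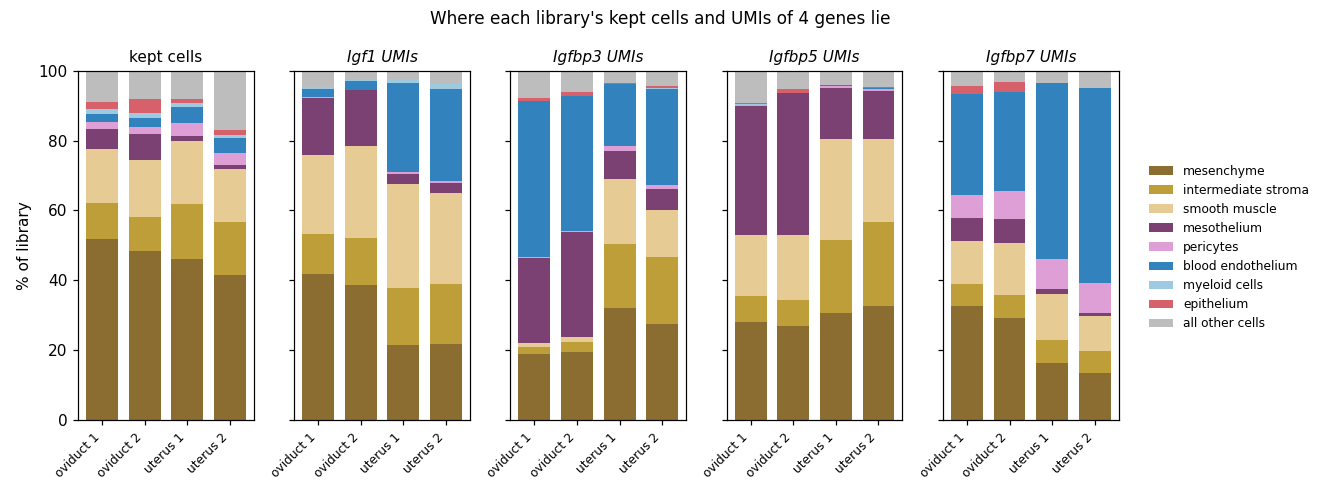
Shares of kept cells (left) and of the UMIs of Igf1, Igfbp3, Igfbp5 and Igfbp7 by cell class, as stacked percentages of each library. Blood endothelium takes 25.4% and 26.5% of the Igf1 UMIs in the uterus libraries and 2.43% and 2.33% in the oviduct libraries.

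Igf1r, the receptor, had the narrowest range of the 9 genes over the 28 class sums as a ratio of the highest to the lowest level. It was at 102 and 110.5 CPM (oviduct) and 97.1 and 90.1 CPM (uterus) in the mesenchyme, 120.1 and 131 against 128 and 115 CPM in smooth muscle, oviduct first, and 68.7 and 87.4 against 107 and 82.5 CPM in the epithelium. Pericytes had 68.3 and 82.9 against 94.2 and 83.8 CPM and blood endothelium 107 and 135 against 126 and 119 CPM, and the organs overlapped in smooth muscle, epithelium, blood endothelium and myeloid cells. Myeloid cells were lowest, with 29.966 and 30.5 against 27.5 and 38.4 CPM. Mesothelium was the one class whose organ difference passed the threshold, with 101 and 106 against 152 and 165 CPM and a log2 difference of -0.60 ± 0.13, adjusted p 0.0139; without uterus library 2 its adjusted p was 0.129. As given with Igf1, smooth muscle and mesenchyme markers were higher in the uterine mesothelial sums. In the epithelium the fitted difference was -0.12 ± 0.19, adjusted p 0.695, and in the mesenchyme 0.13 ± 0.08, adjusted p 0.213, and neither passed.

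Irs1, which couples Igf1r and the insulin receptor to downstream kinases, differed most in the epithelium, and there in the direction opposite to the ligand in the stroma. It was at 7.73 and 4.66 CPM (oviduct) and 80.7 and 77.2 CPM (uterus) (6.19 ± 2.17 CPM and 79.0 ± 2.43 CPM), so that both uterus libraries were above both oviduct libraries, by a ratio of 12.8. The log2 fold change was -3.54 ± 0.24, adjusted p 6.03e-08. These levels rest on 56, 38, 103 and 162 UMIs, of which free RNA could give at most 3.91% in any library. The oviduct and uterine epithelium lay in different clusters for the most part, and 2 clusters are shared. Within cluster 23 Irs1 was at 34.8 and 38.8 against 80.4 and 78.6 CPM, oviduct first, on 32, 2, 100 and 160 UMIs, the same direction with a smaller gap. Within cluster 19 it was at 0 and 3.82 against 90.5 and 31.9 CPM, on 0, 1, 3 and 2 UMIs, again higher in the uterus on few UMIs. Among cells with at least 5000 UMIs the value was -3.52 (adjusted p 1.88e-07 in edgeR). An Irs1 UMI was seen in 18.9% (95% Wilson interval 13.2 to 26.5) and 11.1% (7.61 to 15.8) of oviduct epithelial cells and in 56.8% (42.2 to 70.3) and 45.5% (33.0 to 58.5) of the uterine ones, whose median depth was lower. Of the 103 and 162 uterine UMIs, 100 and 160 lay in the 33 and 26 cells of cluster 23, at 80.4 and 78.6 CPM against 80.7 and 77.2 CPM in the whole class. These cells thus held most UMIs of the uterine sums, and the class median does not give their depth. In blood endothelium, at medians of 18112, 13900.0, 12667 and 15435 UMIs, it was 2.60%, 0%, 2.82% and 1.59%. Thinned to 2500 UMIs, 0 of 117 and 2 of 189 oviduct cells and 7 of 36 and 5 of 34 uterine cells had one, leaving out 15, 37, 8 and 21 shallower cells. Intervals on these shares cover counting error only.

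**Figure D4:**
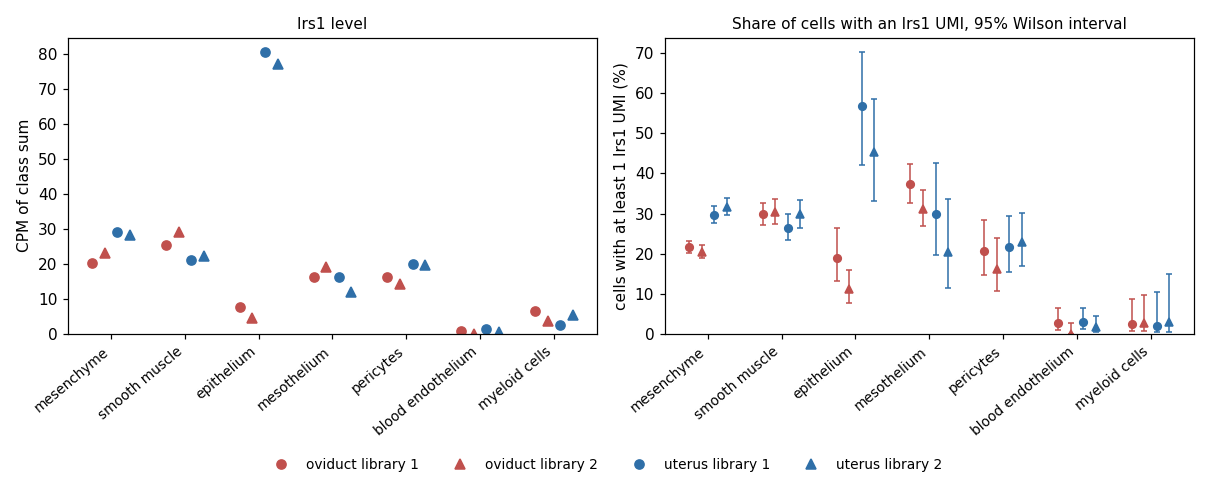
Irs1 level in CPM of the class sum (left) and the share of cells with at least 1 Irs1 UMI with 95% Wilson intervals (right), by class and library. Uterine epithelium stands at 80.7 and 77.2 CPM and oviduct epithelium at 7.73 and 4.66 CPM, and blood endothelium is near 0 in all 4 libraries.

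Outside the epithelium the organ differences of Irs1 were smaller. The mesenchyme had 20.3 and 23.2 CPM (oviduct) and 29.1 and 28.1 CPM (uterus), again higher in the uterus (-0.46 ± 0.09, adjusted p 0.00116). In smooth muscle the order was turned, with 25.5 and 29.2 against 21.1 and 22.2 CPM and a log2 difference of 0.32 ± 0.11, adjusted p 0.0480, a call lost in 6 of its 12 alternatives, without oviduct library 2 (adjusted p 0.242), uterus library 1 (0.205) or uterus library 2 (0.0789) among them. Pericytes had 16.2 and 14.2 against 20.1 and 19.6 CPM and mesothelium 16.2 and 19.1 against 16.2 and 11.9 CPM, and neither difference passed the threshold. In blood endothelium the 4 sums held 4, 0, 5 and 3 Irs1 UMIs, too few for the organ test. Irs1 entered the fit of endothelium against mesenchyme through its mesenchymal counts. The fitted log2 value of -5.35 ± 0.30 (-6.57 to -4.23 over the alternatives) therefore only describes how low Irs1 was there. Myeloid cells were also low, with 5, 2, 1 and 2 UMIs, and had no organ test. In the uterus the epithelium had the highest Irs1 level of the 7 classes and in the oviduct it stood below smooth muscle, mesenchyme, mesothelium and pericytes.

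Igfbp3, the main carrier of Igf1 in the circulation, had opposite organ differences in blood endothelium and in the stroma over the whole classes. Within the 2 mesenchymal clusters that both organs share, the organs overlapped. In blood endothelium it was at 552 and 443 CPM (oviduct) and 139 and 227 CPM (uterus), the organs apart and both uterus libraries lower, with a log2 difference of 1.46 ± 0.20, adjusted p 3.92e-04. In smooth muscle it was at 5.19 and 4.57 CPM (oviduct) and 54.6 and 54.4 CPM (uterus), a ratio of 11.2 toward the uterus (-3.49 ± 0.12, adjusted p 2.34e-09). The low oviduct values there rest on 79 and 59 UMIs, of which free RNA could give 25.7% and 20.6%. In pericytes the levels were 3.36 and 6.74 against 23.9 and 25.6 CPM, on 6, 10, 38 and 51 UMIs, and the fitted value was -2.36 ± 0.36, adjusted p 3.05e-05. Mesothelium had 98.6 and 109 against 206 and 203 CPM (-0.97 ± 0.13, adjusted p 5.97e-04), in sums with more smooth muscle, mesenchyme and blood endothelium markers in the uterus. The endothelial markers were at 173 and 178 against 283 and 259 CPM, oviduct first, and their part was not tested. Mesenchyme had 26.6 and 26.4 against 40.7 and 46.2 CPM (-0.77 ± 0.09, adjusted p 2.79e-05). The 4 stromal, lining and perivascular classes were thus higher in the uterus and the endothelium higher in the oviduct, and the difference of the organ effects between endothelium and mesenchyme was 2.27 ± 0.14, adjusted p 2.61e-12. The 2 uterine endothelial libraries stood at 139 and 227 CPM, a wider gap than in any of those 4 classes, and haemoglobin and other red cell genes summed to 741 CPM in the first of them against 19.4 CPM in the second; the part of this in the result was not tested. Of all Igfbp3 UMIs, endothelium held 44.8% and 38.7% in the oviduct, against 17.9% and 27.5% in the uterus, and smooth muscle 1.29% and 1.52% against 18.6% and 13.7%. In the uterus the libraries of mesothelium (205 ± 2.25 CPM) and endothelium (183 ± 61.7 CPM) overlapped. The epithelium had 41, 49, 2 and 30 UMIs (5.66 and 6.004 against 1.57 and 14.3 CPM), and its organ difference of -0.51 ± 0.49, adjusted p 0.499 passed without uterus library 1 (-1.19, adjusted p 0.0177). Myeloid cells had 4, 0, 1 and 13 UMIs and no organ test.

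Igfbp4 mostly inhibits Igf action and is cut by Pappa. Of the members, it had the highest correlation with Igf1. This was 0.89 for log2 levels over the 28 class sums of the 4 libraries, given as a description. Both genes were lowest in epithelium and next lowest in pericytes in either organ. Among the other uterine classes the orders differed: Igf1 was lowest in mesenchyme (mean 52.6 CPM), while Igfbp4 was highest there (788 CPM). In the mesenchyme it was at 1069 and 977 CPM (oviduct) and 753 and 823 CPM (uterus), with a log2 difference of 0.32 ± 0.09, adjusted p 0.0128; without uterus library 1 the adjusted p was 0.205. In smooth muscle it was higher in the uterus, with 531 and 477 against 703 and 737 CPM (-0.53 ± 0.09, adjusted p 6.54e-04). Mesothelium had 976 and 856 against 525 and 599 CPM (0.72 ± 0.14, adjusted p 0.00778), a call lost without uterus library 1 (adjusted p 0.111). Here smooth muscle and mesenchyme markers were lower in the oviduct sums. Pericytes with 187 and 191 against 199.8 and 211 CPM, endothelium with 644 and 544 against 622 and 645 CPM and myeloid cells with 816 and 629 against 462 and 601 CPM did not pass the threshold. The epithelium was lowest in both organs, with 59.8 and 49.4 against 10.97 and 21.5 CPM (1.80 ± 0.26, adjusted p 1.05e-04). Over the alternatives the epithelial log2 value ran from 1.36 to 3.61, with 3.61 when free RNA was subtracted and 2.49 without uterus library 2. Its uterine values rest on 14 and 45 UMIs, and free RNA could give 100% and 68.6% of them, against 19.8% and 11.5% in the oviduct.

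The stromal score range shows how these genes change between mesenchyme and smooth muscle. Intermediate stroma had Igf1 at 703 and 889 CPM (oviduct) and 115 and 103 CPM (uterus), at or above the mesenchyme in every library. Igfbp4 in the oviduct stepped down over the range, from 1069 and 977 CPM in mesenchyme through 702 and 657 to 531 and 477 CPM in smooth muscle. In the uterus it was 753 and 823, then 729 and 836, then 703 and 737 CPM, a narrower span. Igfbp3 in the oviduct also fell along the range in level, from 26.6 and 26.4 through 13.0 and 16.8 to 5.19 and 4.57 CPM, and in the uterus it was highest in the middle, at 67.7 and 80.9 CPM. Igfbp6 was at 48.5 and 57.1 against 25.3 and 24.4 CPM in the middle, between its organ values in the classes on either side or close to them. The order of classes was not tested, and the libraries of an organ share their cells' pools over all 3 classes.

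**Figure D5:**
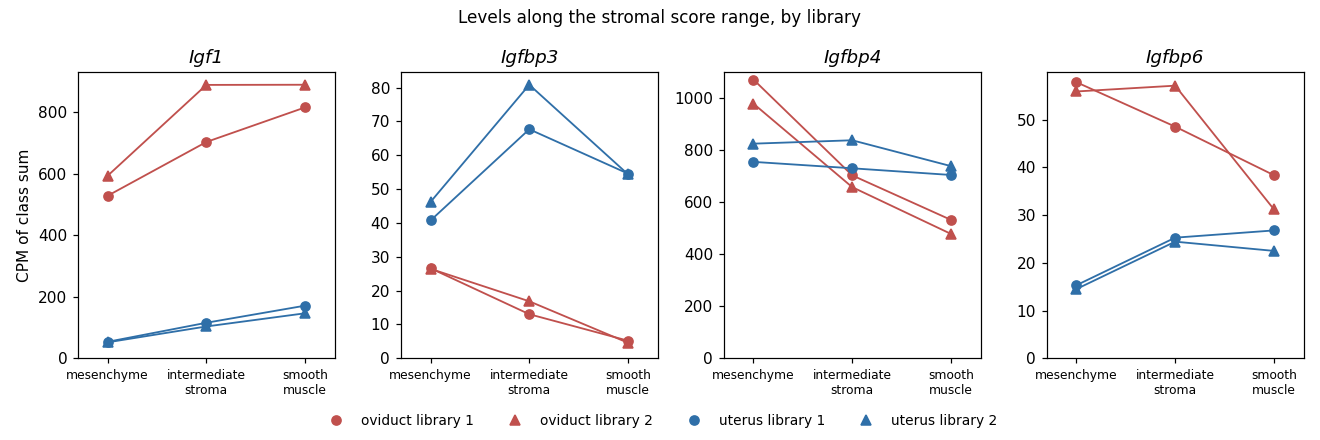
Levels of Igf1, Igfbp3, Igfbp4 and Igfbp6 in CPM of the class sum (vertical axis, from 0) in mesenchyme, intermediate stroma and smooth muscle, with 1 line per library (red oviduct, blue uterus). Igfbp3 falls to 5.19 and 4.57 CPM in oviduct smooth muscle and is 54.6 and 54.4 CPM in uterine smooth muscle.

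Igfbp2, a binding protein common in fetal and epithelial tissues, was highest in the mesothelium of both organs, with 669 and 576 CPM (oviduct) and 517 and 482 CPM (uterus). The mesenchyme had 287 and 239 against 245 and 238 CPM, where the organs overlapped, and smooth muscle 178 and 151 against 137 and 142 CPM (0.22 ± 0.10, adjusted p 0.106; 0.0181 without oviduct library 2). The mesothelial difference was 0.33 ± 0.13, adjusted p 0.194, and 0.0193 was its adjusted p without oviduct library 2. The epithelium had 111 and 114 against 143 and 199 CPM, both uterus libraries higher, and the difference did not pass the threshold (-0.48 ± 0.19, adjusted p 0.0796) but did without uterus library 1 (0.0134) and with crossed replicate numbers as a block (-0.47, adjusted p 0.0263). Endothelium with 11.6 and 5.31 against 7.78 and 11.9 CPM and myeloid cells with 29.966 and 11.4 against 2.50 and 35.7 CPM were low and overlapped between the organs. Pericytes were the one class with an organ difference, 11.2 and 14.2 against 45.9 and 48.7 CPM at -1.95 ± 0.23, adjusted p 5.58e-07. The value was -1.19 with doublets kept and -2.98 with free RNA subtracted. Of the pericyte UMIs, free RNA could give 65.3% and 57.5% in the oviduct, against 17.9% and 22.9% in the uterus. In the same pericyte sums, mesenchyme markers were at 1534, 1679.6, 1429 and 1323 CPM and smooth muscle markers at 2783, 2889, 1725 and 1949 CPM, neither higher in the uterus.

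Igfbp5, a binding protein that also attaches to the extracellular matrix, lies next to Igfbp2 and had a like order of classes, with a correlation of 0.84 over the 28 sums. Mesothelium had by far its highest level, 3024 and 3073 CPM (oviduct) and 4480.3 and 3906 CPM (uterus). There the uterus libraries were both higher, with a log2 difference of -0.45 ± 0.13, adjusted p 0.0583. It passed with the replicate number as a block (adjusted p 0.0482), with the test of DESeq2 (0.0103), with no filter (0.0160) and with doublets kept (0.0409). Without oviduct library 1 the value was -0.44 and without oviduct library 2 it was -0.45. Smooth muscle had 1443 and 1165 against 1030.4 and 771 CPM (0.52 ± 0.13, adjusted p 0.00972), a call lost without uterus library 2 (adjusted p 0.0775) and with the test of DESeq2 (0.142). In the mesenchyme it was higher in the oviduct, 804 and 768 against 474 and 446 CPM (0.72 ± 0.08, adjusted p 1.69e-05), and so it was in the epithelium, 79.8 and 94.5 against 24.3 and 50.5 CPM (1.28 ± 0.25, adjusted p 0.00136; 2.02 without uterus library 2). Pericytes had 121 and 117 against 170.3 and 114 CPM (-0.28 ± 0.15, adjusted p 0.359). Endothelium was low, with 15.4 and 7.09 against 8.78 and 17.5 CPM, of which free RNA could give 65.8% to 100%. Myeloid cells had 171 and 17.1 against 19.98 and 145 CPM, and a single cell held 89.3% of the UMIs in oviduct library 1 and 81.1% in uterus library 2. Mesothelium held 37.0% and 40.6% of the Igfbp5 UMIs of the oviduct libraries and 14.7% and 13.7% of those of the uterus libraries.

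Igfbp6, which binds Igf2 in preference to Igf1, was highest in the mesothelium, at 1233 and 1035 CPM (oviduct) and 938 and 804 CPM (uterus). Against the mesenchyme of the same libraries the mesothelium was higher, by a log2 difference of 4.90 ± 0.33, adjusted p 6.99e-05. Between the organs the mesothelium differed by 0.39 ± 0.14, adjusted p 0.136, and with the replicate block by 0.39 at an adjusted p of 0.0383; without oviduct library 2 the adjusted p was 0.00106. In the mesenchyme the organs were 57.8 and 55.9 against 15.3 and 14.5 CPM, a ratio of 3.82 toward the oviduct (1.88 ± 0.09, adjusted p 5.48e-09). Free RNA could give 16.9%, 19.4%, 21.7% and 13.7% of these UMIs, and over the alternatives, with free RNA subtracted among them, the log2 fold change stayed between 1.45 and 1.92. Mesothelium markers summed to 21.2 and 25.7 CPM in oviduct mesenchyme and 3.63 and 2.66 CPM in uterine mesenchyme, against 2172 to 2450.2 CPM in the mesothelium itself, and their part in the result was not tested. Smooth muscle had 38.3 and 31.2 against 26.8 and 22.5 CPM (0.49 ± 0.13, adjusted p 0.0117), and the call was lost with free RNA subtracted (adjusted p 0.0625), without oviduct library 1 (0.0831) and without uterus library 2 (0.0815). The epithelium had 123, 46, 0 and 29 UMIs and a difference of 0.57 ± 0.64, adjusted p 0.579, which passed without oviduct library 2 (1.17, adjusted p 0.0115) and without uterus library 2 (8.97, adjusted p 0.00363). The last value is set against 0 uterine UMIs, so its size is no measure of the difference. Endothelium had 3.61 and 2.07 against 0.251 and 2.79 CPM and myeloid cells 6.51 and 7.62 against 7.49 and 8.23 CPM. In pericytes all 8, 3, 1 and 2 UMIs could come from free RNA, and no organ test was made.

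Igfbp7 was highest in blood endothelium and next in pericytes in both organs. Blood endothelium had 2904 and 3048 CPM (oviduct) and 2755 and 2938 CPM (uterus), where the organs overlapped (0.09 ± 0.14, adjusted p 0.899). Pericytes had 1831 and 1982 against 1189 and 1199.8 CPM, higher in the oviduct (0.63 ± 0.11, adjusted p 1.66e-04). The mesenchyme had 373 and 378 against 146 and 143 CPM, with a log2 difference of 1.32 ± 0.08, adjusted p 4.14e-08. Smooth muscle had 411 and 422 against 273 and 260.0 CPM (0.63 ± 0.08, adjusted p 6.64e-05). Endothelial markers in mesenchymal sums were at 51.0 and 57.6 against 25.9 and 25.8 CPM, oviduct first, against 4963 to 5828 CPM in the endothelium itself, and their part was not tested. The ratio was largest in the epithelium, at 154 and 125 against 10.2 and 19.6 CPM (3.28 ± 0.26, adjusted p 2.43e-07), and the log2 value was 4.02 with free RNA subtracted and 3.95 without uterus library 2. Within epithelial cluster 23 the organs overlapped, at 15.2 and 0 against 9.65 and 17.7 CPM on 14, 0, 12 and 36 UMIs. Within cluster 19 both oviduct libraries were higher, at 165 and 137 against 30.2 and 79.7 CPM on 20, 36, 1 and 5 UMIs. The uterine epithelial values rest on 13 and 41 UMIs, with 65.2% and 35.9% within reach of free RNA, and the oviduct values on 1117 and 1024 UMIs, with 4.73% and 2.97%. Endothelial markers in the epithelium summed to 69.0 and 47.9 CPM in the oviduct, against 26.6 and 28.1 CPM in the uterus. Among epithelial cells with at least 5000 UMIs the value was 3.43. Mesothelium had 209 and 230.1 against 234 and 192 CPM, with the organs overlapping, and myeloid cells 35.2 and 57.1 against 12.5 and 19.2 CPM, which did not pass the threshold (1.46 ± 0.48, adjusted p 0.465). Endothelium held 50.3% and 55.8% of the Igfbp7 UMIs in the uterus and 29.0% and 28.2% in the oviduct.

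Levels within clusters that hold at least 2% of a class in both organs were looked at after the data had been seen, and are given without a test, oviduct first; the clusters were built from the expression of the same cells. Mesenchyme had 2 such clusters, 6 and 8, and the cells of cluster 8 were much shallower, as given with Igf1. There Igfbp7 was higher in both oviduct libraries in either cluster, at 352 and 302 against 257 and 242 CPM in cluster 6 and 231 and 316 against 176 and 170.5 CPM in cluster 8. So was Igfbp6, at 46.4 and 34.2 against 29.9 and 26.2 CPM and 79.5 and 35.1 against 25.6 and 17.0 CPM. Igfbp2, which overlapped over the whole class, was higher in both oviduct libraries in either cluster. It was at 200 and 199 against 170 and 190 CPM in cluster 6 and 262 and 257 against 179 and 187 CPM in cluster 8. Igf1r overlapped in both. Igfbp5 overlapped between the organs in cluster 6, at 1824 and 1389.6 against 1784 and 1437 CPM, and not in cluster 8, at 795 and 708 against 469 and 469 CPM. The same held for Igfbp4, at 902 and 798 against 808 and 855 CPM in cluster 6 and 859 and 913 against 641 and 724 CPM in cluster 8. The members higher in the uterus over the whole class overlapped in both clusters. Igfbp3 was at 27.1 and 33.1 against 31.7 and 45.01 CPM in cluster 6 and 47.7 and 29.2 against 36.6 and 29.8 CPM in cluster 8, and Irs1 at 13.5 and 16.6 against 15.5 and 20.5 CPM and 47.7 and 29.2 against 18.3 and 55.4 CPM. Smooth muscle had 3, clusters 4, 6 and 8, with 14, 29, 439 and 400, 46, 36, 110 and 90 and 24, 17, 14 and 15 cells in the 4 libraries. Igfbp7 was higher in both oviduct libraries in each of them, at 535 and 495 against 303 and 284 CPM, 281 and 308 against 265 and 242 CPM and 177 and 177 against 100.1 and 103 CPM in that order. Igfbp3 was higher in both uterus libraries in cluster 4, at 27.2 and 14.1 against 53.6 and 58.7 CPM on 6, 5, 342 and 390 UMIs, and in cluster 6, at 13.2 and 1.998 against 45.9 and 31.5 CPM on 10, 1, 75 and 48 UMIs. It overlapped in cluster 8, at 22.1 and 35.3 against 0 and 34.2 CPM on 1, 1, 0 and 2 UMIs. Igfbp4 likewise was lower in both oviduct libraries in clusters 4 and 6 and overlapped in cluster 8. Igfbp5, Igfbp6 and Irs1 overlapped in 2 of the 3. The epithelium had 2, cluster 23 with 28, 9, 33 and 26 and cluster 19 with 20, 76, 11 and 29 cells. Igfbp4 and Igfbp5 overlapped between the organs in both, Igfbp4 at 20.6 and 0 against 10.5 and 19.2 CPM in cluster 23 and 57.6 and 80.1 against 30.2 and 95.6 CPM in cluster 19, and Igfbp5 at 57.6 and 38.8 against 23.3 and 47.7 CPM and 32.9 and 72.5 against 60.3 and 143 CPM. Igf1 was higher in both oviduct libraries in each, on 5, 3, 1 and 3 UMIs in cluster 23 and 3, 4, 0 and 0 UMIs in cluster 19.

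Counted over the 9 genes, the organ difference passed the threshold most often in mesenchyme and smooth muscle, the classes in which the share of all genes that passed was also highest. In the mesenchyme 7 of 9 passed, 5 with the oviduct higher and 2 with the uterus higher, where 46.2% of all genes tested did (24.6% and 21.6% in these directions, given in brackets in this order below). In smooth muscle 7 of 9 passed (5 and 2), against 30.2% (16.2% and 14.0%) of all genes. In the epithelium 5 of 9 passed (4 and 1), against 22.9% (14.1% and 8.76%). Pericytes had 4 of 8 tested (2 and 2) against 5.89% (3.95% and 1.94%), and mesothelium 4 of 9 (2 and 2) against 6.73% (3.72% and 3.01%). Blood endothelium had 1 of 8, Igfbp3, against 2.86% (2.22% and 0.636%), and myeloid cells 0 of 6 against 0.219% (0.118% and 0.101%); of the 6 myeloid values 1 (Igfbp7) had an unadjusted p under 0.05 in edgeR, and the test of DESeq2 called none of them. The median log2 fold change of the members tested was 0.32 in mesenchyme, 0.32 in smooth muscle, 0.57 in epithelium, 0.33 in mesothelium, -0.28 in pericytes, -0.03 in blood endothelium and 0.28 in myeloid cells, where the median of all genes tested lay between -0.01 and 0.01. With the replicate number as a block 1528 genes in place of 846 passed in mesothelium, Igfbp5 and Igfbp6 among them, and 36 in place of 13 in myeloid cells. The organ differences of the classes come from the same 4 libraries and are not independent of each other.

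Against the mesenchyme of the same library, which all 6 of these comparisons share, the members called were mostly lower in epithelium, pericytes, blood endothelium and myeloid cells and mostly higher in smooth muscle and mesothelium; shares of all genes called are again followed by those above and below the mesenchyme. The epithelium was lower for 8 of 9 members, with 50.8% (23.3% and 27.6%) of all genes passing in either direction; Irs1 was the exception (-0.23 ± 0.66, adjusted p 0.799), with an oviduct level below and a uterine level above that of the mesenchyme. The calls of 3 of the 8 were not kept throughout: Igf1r without oviduct library 1 (adjusted p 0.274), oviduct library 2 (0.0809) or uterus library 2 (0.0796), with the stricter cell filter (0.0637) or doublets kept (0.0933), Igfbp6 without oviduct library 1 (0.0783) or 2 (0.0852) or the library as a block (0.0553), and Igfbp7 without that block (0.105). The largest differences were Igf1 (-6.48 ± 0.41, adjusted p 7.82e-05), Igfbp4 (-4.90 ± 0.40, adjusted p 1.90e-04) and Igfbp5 (-3.50 ± 0.26, adjusted p 1.40e-04). Most or all of the epithelial Igf1 UMIs, and of the uterine epithelial Igfbp4 UMIs, were within reach of free RNA, as given with those genes. The Igf1 value therefore only describes a low count, and so does the uterine side of the Igfbp4 value. Over the alternatives the Igf1 value ran from -8.34 to -5.72, and that of Igfbp4 from -5.64 to -4.36. Smooth muscle passed for 5 of 9 (4 higher, 1 lower) with 14.4% (7.6% and 6.76%) of all genes, and Igf1 (1.13 ± 0.19, adjusted p 0.0122), Igfbp5 (0.89 ± 0.08, adjusted p 7.72e-04), Igfbp7 (0.56 ± 0.14, adjusted p 0.0466) and Igf1r (0.35 ± 0.04, adjusted p 0.00372) were higher and Igfbp2 (-0.68 ± 0.05, adjusted p 4.23e-04) lower. Without the library as a block, the adjusted p was 0.830 for Igf1 and 0.0968 for Igfbp5, and it was 0.0561 for Igf1 without uterus library 2. The Igfbp7 call was lost whichever library was left out, at adjusted p 0.0533 to 0.153, and in 7 of its 12 alternatives in all. Smooth muscle Igfbp3, not called, was below the mesenchyme in the oviduct (4.88 against 26.5 CPM) and above it in the uterus (54.5 against 43.5 CPM). Pericytes were lower for 8 and higher for 1 of 9, with 33.1% (15% and 18.1%) of all genes, and the higher one was Igfbp7 (2.63 ± 0.13, adjusted p 3.33e-07). Igf1r was lost without oviduct library 1 (0.148) or 2 (0.118) or with the test of DESeq2 (0.0592), and Igfbp3 without the block (0.0798). Igfbp6 is among the 8 on 8, 3, 1 and 2 pericyte UMIs, all within reach of free RNA. It entered the fit through its mesenchymal counts, and its value ran from -11.87 to -3.43 over the alternatives, so it only describes a low count. Mesothelium was higher for 4 (Igfbp2, Igfbp3, Igfbp5 and Igfbp6) and lower for 2 (Irs1 and Igfbp4), with 41.0% (20.7% and 20.3%) of all genes. Irs1 was lost without uterus library 1 (0.0666), Igfbp4 without uterus library 1 (0.0730) or 2 (0.0685) or the block (0.131), and Igf1, not called, passed without oviduct library 2 (0.0416). Blood endothelium was higher for 2, Igfbp7 (3.51 ± 0.27, adjusted p 3.30e-05) and Igfbp3 (3.01 ± 0.49, adjusted p 0.00157), and lower for 5, with 62.7% (27.8% and 34.9%) of all genes. Irs1 is among the 5, on the few endothelial UMIs given with that gene. Igfbp2, Igfbp5 and Igfbp6 were low there too, at means of 8.48, 11.3 and 2.84 CPM (oviduct) and 9.85, 13.1 and 1.52 CPM (uterus). Over the alternatives their values ran from -6.05 to -4.22, from -8.44 to -4.16 and from -6.47 to -3.49. Like that of Irs1, these calls describe low counts. Endothelial Igf1 was not called, with means of 283 against 561 CPM in the oviduct and 346 against 52.6 CPM in the uterus, endothelium first. Myeloid cells were lower for 8 of 9, with 45.8% (18.8% and 26.9%) of all genes. Of the 8, Irs1 and Igfbp3 had too few myeloid UMIs for an organ test, and Igfbp6 was at means of 7.07 (oviduct) and 7.86 CPM (uterus), so these calls describe low counts. Igf1 did not pass in myeloid cells (0.39 ± 0.44, adjusted p 0.488) except without oviduct library 2 (1.04, adjusted p 0.0213). There its mean was below that of the mesenchyme in the oviduct (279 against 561 CPM) and above it in the uterus (214 against 52.6 CPM). The fit takes 1 value over both organs and averages such opposite directions.

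Whether the organ effect differs between 2 classes was tested as an interaction. Between epithelium and mesenchyme 4 of 9 members passed, with 19.6% (12.5% and 7.09%) of all genes: Irs1 (-3.00 ± 0.23, adjusted p 9.83e-11), Igfbp7 (2.05 ± 0.24, adjusted p 1.90e-07), Igfbp4 (1.59 ± 0.23, adjusted p 8.51e-06) and Igfbp5 (0.66 ± 0.23, adjusted p 0.0436). The median over all genes was 0.12 and not 0 in this fit, with 63.7% of the calls positive; with the size factors of DESeq2 it was 0.03 and 52.9%, Igfbp5 did not pass (adjusted p 0.0851) and Igfbp2, not called in the fit, did (-0.54, adjusted p 0.0280). Igfbp5 was also lost without oviduct library 1 (0.0506), oviduct library 2 (0.273) or uterus library 1 (0.764), with the test of DESeq2 (0.356), with clusters (0.0919) and with free RNA subtracted (0.0503), 7 of 11 alternatives in all, and its value ran from 0.13 to 1.44. Igfbp2 also passed with no filter (0.0389), with the stricter cell filter (0.00883), with clusters (0.0318) and without uterus library 1 (1.63e-04), Igfbp3 without uterus library 2 (2.84, adjusted p 0.00268), and Igfbp6 without oviduct library 1 (-2.27, adjusted p 4.91e-06) or uterus library 1 (-2.16, adjusted p 1.89e-05), with no filter (0.00258) and with the stricter cell filter (0.00310). Without uterus library 2 the Igfbp4 value was 2.20 and that of Igfbp7 2.73, and with free RNA subtracted they were 3.39 and 2.71. Between blood endothelium and mesenchyme 5 of 9 passed, with 13.0% (6.32% and 6.68%) of all genes: besides Igf1 and Igfbp3, given with those genes, Igfbp7 (-1.22 ± 0.10, adjusted p 1.25e-09), Igfbp5 (-0.89 ± 0.28, adjusted p 0.0328) and Igfbp4 (-0.38 ± 0.10, adjusted p 0.0146). The Igfbp4 call was lost without oviduct library 1 (0.0558) or 2 (0.244), and the Igfbp5 call without oviduct library 2 (0.192) or uterus library 2 (0.775), with the test of DESeq2 (0.779) and with the stricter cell filter (0.0683). The Igfbp5 value ran from -0.24 to -9.62, the last with free RNA subtracted. Igfbp6, not called, passed without uterus library 1 (-1.81, adjusted p 0.00793) and with free RNA subtracted (-8.22, adjusted p 0.0414).

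The genes most like each member over the 28 class sums were found by Pearson correlation of log2(CPM + 1) among 6412 genes, markers left out, and are given as a description; the sums of a library share its depth and its pool. Igf1 was most like Igfbp4 (r = 0.89) and Bst2 (0.85), and Igfbp4 most like Plod1 (0.91) and Igf1. Igf1r was most like Grb10 (0.96), an adaptor that binds the Igf1 receptor and the insulin receptor, and Cul7 (0.94). Irs1 was most like Fzd2 (0.90) and Meis1 (0.89). Igfbp2 was most like Loxl1 (0.96) and Efna5 (0.93), Igfbp5 like Gas1 (0.96) and Zfyve21 (0.94), and Igfbp6 like Rspo1 (0.94) and Myrf (0.94). Igfbp3 was most like Ece1 (0.84) and Tmem255a (0.84), and Igfbp7 like Kctd17 (0.96) and Lama4 (0.95). Among the members, Igfbp2, Igfbp5 and Igfbp6 ran together (0.84, 0.73 and 0.83), and the lowest correlation was that of Irs1 and Igfbp7 (-0.38).

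A list of 39 further genes of the pathway (ligands, receptors, proteases, adaptors and the phosphoinositide 3-kinase, Akt and mTOR genes) was described in the same fits. In the mesenchyme 20 of 36 tested were called higher in the oviduct, 3 lower and 13 not called, against 46.2% (24.6% and 21.6%) of all genes tested, with a median log2 fold change of 0.30. The largest toward the oviduct were Ins2 (5.28), with 199 and 202 oviduct UMIs against 4 and 3 uterine ones, the Igfbp protease Pappa2 (2.18) and the docking protein Irs4 (1.59), and toward the uterus Rps6kb1 (-0.32), Htra1 (-0.29) and Pik3r2 (-0.26). Those 3 calls depended on single libraries: Rps6kb1 was lost without uterus library 1 (adjusted p 0.0573), Htra1 without uterus library 2 (0.215), and Pik3r2 without oviduct library 1 (0.0959), uterus library 1 (0.0627) or uterus library 2 (0.0714). Igf2, the other Igf ligand, was at 66.1 and 66.1 CPM (oviduct) and 33.3 and 35.1 CPM (uterus) (0.89 ± 0.08, adjusted p 3.06e-06) and at 53.3 and 46.1 against 30 and 27.2 CPM in smooth muscle (0.79 ± 0.11, adjusted p 2.32e-04). Its level is uncertain, since the annotation has a further gene, Gm49394, over the same 3' end on the same strand, and how reads of both were assigned is not given in the sources used here; Gm49394 had 4 UMIs over all class sums. Ghr, the growth hormone receptor that drives Igf1 in the liver, was at 54.3 and 60.4 against 25.6 and 26.4 CPM in the mesenchyme (1.08 ± 0.09, adjusted p 8.02e-07), and in smooth muscle it did not pass (-0.06 ± 0.10, adjusted p 0.684). Irs2, the other widespread docking protein, was higher in the oviduct in mesenchyme (1.26 ± 0.16, adjusted p 3.66e-05) and in the epithelium (1.00 ± 0.27, adjusted p 0.0128), where Irs1 was lower; the epithelial call was lost without uterus library 2 (adjusted p 0.230). Igf2r, which takes up Igf2, was at 87.8 and 101 against 70.3 and 67.1 CPM in the mesenchyme (0.40 ± 0.08, adjusted p 0.00206), and Insr, the insulin receptor, did not pass there (0.04 ± 0.09, adjusted p 0.720). Pappa was higher in the oviduct in smooth muscle (0.88 ± 0.15, adjusted p 8.11e-04), and its mesenchymal value of 0.25 was lost without oviduct library 2 (0.121), uterus library 1 (0.0681) or uterus library 2 (0.136).

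In the epithelium 7 of 29 tested were called higher in the oviduct, 3 lower and 19 not called, against 22.9% (14.1% and 8.76%) of all genes. Toward the oviduct the largest were Grb14 (3.61 ± 0.45, adjusted p 2.67e-05), an inhibitory adaptor of the insulin receptor, Stc2 (1.98 ± 0.26, adjusted p 4.84e-05), an inhibitor of Pappa, and Foxo1 (1.01 ± 0.20, adjusted p 0.00186), a transcription factor that Akt keeps out of the nucleus. Toward the uterus they were Htra1 (-2.60 ± 0.32, adjusted p 2.57e-05), at 10.9 and 4.29 against 43.1 and 55.3 CPM, Igf2r (-1.05 ± 0.23, adjusted p 0.00304) and Grb10 (-0.59 ± 0.17, adjusted p 0.0180). The Grb10 call was lost without oviduct library 1 (0.108), oviduct library 2 (0.139) or uterus library 1 (0.0770) and with the replicate block (0.0812). Ghr passed in the epithelium as well (0.93 ± 0.30, adjusted p 0.0328), but not without oviduct library 2 (0.144) or uterus library 2 (0.242), Insr did not (0.29 ± 0.30, adjusted p 0.525), and Igf2 and Pappa were too low for the organ test there. In smooth muscle 12 of 35 were called higher in the oviduct and 4 lower, against 30.2% (16.2% and 14.0%) of all genes, led by Grb14 (1.88) and Igfbpl1 (-1.01), the second lost whichever library was left out (0.0524 to 0.198). Pericytes had 3 of 28 called, against 5.89% of all genes, led by Htra1 (0.79) and Igf2r (-0.48), and Igf2r was lost without oviduct library 1 (0.138) or uterus library 1 (0.144). Mesothelium had 6 of 33 called, against 6.73% of all genes, led by Stc2 (3.15; adjusted p 0.434 with the test of DESeq2) and Pappa (-1.89), the second lost without uterus library 1 (0.0736) or 2 (0.234). Ins2 was higher in the oviduct there too (2.56), with 513 and 293 UMIs against 9 and 4. Blood endothelium had 3 of 30 called, against 2.86% of all genes, Pappa (2.55), Stc1 (1.35) and Htra1 (-0.61). There the Pappa call was lost without oviduct library 2 (1.70, adjusted p 0.623), uterus library 1 (1.97, 0.408) or uterus library 2 (4.07, 0.167), and the Htra1 call whichever library was left out (0.0984 to 0.224) and with the replicate block (0.0945). In myeloid cells 0 of 14 passed in edgeR, against 0.219% of all genes, and 1 had an unadjusted p under 0.05. Htra1 was higher in the uterus in epithelium, smooth muscle (-0.41 ± 0.08, adjusted p 0.00304) and mesothelium (-0.81 ± 0.15, adjusted p 0.00566) and higher in the oviduct in pericytes (0.79 ± 0.16, adjusted p 8.21e-04; 0.0534 with the test of DESeq2), and whether these differ was not tested. Over all classes 62 values of these genes were called, the Insr value that follows included, 30 kept the call in every alternative, 32 lost it in at least 1, and none turned its direction. Insr was highest in the endothelium, at 87.5 and 108 against 128 and 101 CPM, above the mesenchyme by a log2 difference of 2.31 ± 0.09, adjusted p 1.48e-06, and Irs2 was low there like Irs1 (1.20 and 0.590 against 0.753 and 1.30 CPM).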

How the data were processed

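The organs were dissociated in a medium holding Collagenase B, Dispase II and DNase I, per the labels' protocols. The authors deposited UMI counts per gene and barcode, as matrices of called cells and of all droplets, written by Cell Ranger 6.0.1 and 4 per the file headers; mm10 and Seurat 4.2.3 are named in the submitters' processing notes, while annotation, intron use and strand use were not stated there. From these counts, barcodes with 500 or more genes and no more than 15% mitochondrial UMIs went on. Of the called barcodes, 11.4% and 13.8% failed in oviduct libraries 1 and 2 and 29.0% and 28.7% in uterus libraries 1 and 2. The part of this in the organ differences was not tested. Doublets were removed by Scrublet score, the top 0.8% of barcodes per 1000 barcodes. Classes were cut from marker scores between 0 and 1: at least 0.25 and 0.05 above the next list for distinct classes, smooth muscle at 0.3 or above, and mesenchyme below 0.2 with a mesenchyme score of at least 0.1; these thresholds were set after the scores had been seen. Counts were summed per class and library and fitted in edgeR 4.0.16 (R 4.3.3) by quasi-likelihood, with TMM scaling, filterByExpr and Benjamini-Hochberg adjustment over all genes tested; a gene was called at an adjusted p under 0.05, and values after ± are standard errors of log2 fold changes or SDs of CPM. Classes were compared with mesenchyme with the library as a block. Free RNA was taken from droplets with up to 100 UMIs and scaled to the marker lists a class should lack, so its percentages are upper estimates. Both organs of a pool came from the same neonates, per the series' design text; that libraries with the same number share a pool is an assumption of the block, since no label ties a number to a pool. Deviations from the organ means of same-numbered libraries correlated at 0.230 in mesenchyme, 0.245 in smooth muscle, 0.170 in mesothelium, 0.111 in pericytes, -0.0440 in myeloid cells, -0.174 in endothelium and -0.213 in epithelium. Alternatives were the test and size factors of DESeq2 1.42.0, no filter, each library left out, cells with at least 1000 genes and at most 10% mitochondrial UMIs, doublets kept, clusters, free RNA subtracted, the replicate block, and, added after the data were seen, cells with at least 5000 UMIs, a crossed block, the endothelial interaction and levels within shared clusters. Members and gene lists were chosen with earlier results of these data known; all 9 members are named whatever their result, and of the pathway list the largest called changes and 7 fixed genes. The test was tested on simulated data.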

Additional observations from a re-analysis of the deposited data

Results flagged for a closer look

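Organ effects that differed between classes are given here with their tests, as values without an explanation. The organ effect (oviduct minus uterus, log2) in the epithelium minus that in the mesenchyme was -3.00 ± 0.23, adjusted p 9.83e-11 for Irs1, 2.05 ± 0.24, adjusted p 1.90e-07 for Igfbp7, 1.59 ± 0.23, adjusted p 8.51e-06 for Igfbp4 and 0.66 ± 0.23, adjusted p 0.0436 for Igfbp5, in edgeR's quasi-likelihood test; the Igfbp5 call was lost in 7 of 11 alternatives, over which it ran from 0.13 to 1.44. The epithelium and mesenchyme of the organs lay mostly in different clusters. In the shared epithelial clusters 23 and 19, Igfbp4 and Igfbp5 overlapped between the organs and Irs1 was higher in both uterus libraries. In cluster 23 Irs1 was at 34.8 and 38.8 against 80.4 and 78.6 CPM, oviduct first, on 32, 2, 100 and 160 UMIs. That gap is smaller than over the whole class. In cluster 19 it rests on 0, 1, 3 and 2 UMIs. Igfbp7 overlapped in cluster 23 and was higher in both oviduct libraries in cluster 19. For Irs1 the organ difference was -3.54 in the epithelium and -0.46 in the mesenchyme, the same direction in both. In blood endothelium minus mesenchyme the difference was -3.60 ± 0.11, adjusted p 1.27e-18 for Igf1, 2.27 ± 0.14, adjusted p 2.61e-12 for Igfbp3, -1.22 ± 0.10, adjusted p 1.25e-09 for Igfbp7, -0.89 ± 0.28, adjusted p 0.0328 for Igfbp5 and -0.38 ± 0.10, adjusted p 0.0146 for Igfbp4; the last 2 calls were lost in 4 and 2 of 11 alternatives, with values from -0.24 to -9.62 and from -0.31 to -0.45. For Igfbp3 the organ differences had opposite signs, 1.46 in endothelium and -0.77 in mesenchyme, and both passed the threshold; within the mesenchymal clusters that both organs share, 6 and 8, Igfbp3 overlapped between the organs. Igf1, Igfbp4 and Igfbp5 overlapped between the organs in mesenchymal cluster 6 and not in cluster 8, whose cells were much shallower. For Igf1 the levels in cluster 6 were 274 and 349 against 324 and 262 CPM, oviduct first. The endothelial set was tested after the endothelial levels had been seen.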

How the results depend on the processing

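Of 80 called values of the 9 genes, 60 kept the call in every alternative run, 20 lost it in at least 1, and none of the 966 refits reversed a called direction; 15 of 50 uncalled values passed in at least 1. Counts of genes called are given here where they moved by over 1.5 times, and as a range for each library left out, moved or not; the cause was not tested. With the test of DESeq2 the counts were 1621 (epithelium), 2508 (smooth muscle), 190 (pericytes), 557 (mesothelium), 138 (blood endothelium) and 23 (myeloid cells), 1530 for the epithelial and 721 for the endothelial interaction, in place of 2794, 4052, 580, 846, 319 and 13, and 3016 and 1911. With no filter they were 1342 in mesothelium, 534 in blood endothelium and 197 in myeloid cells, and with the stricter cell filter 8 in myeloid cells. Among the uncalled values that passed in an alternative, Igfbp6 in smooth muscle against mesenchyme, near 0 in the fit reported, did so with clusters (0.63). In the same comparison Igfbp4 passed with the test of DESeq2 (-0.53, adjusted p 0.0195). Smooth muscle against mesenchyme gave 2128 genes, 3703 with clusters and 634 with no replicate block. With the replicate block the counts were 1528 in mesothelium and 36 in myeloid cells, and among the 9 genes that block changed no other organ call than those of Igfbp5 and Igfbp6 in mesothelium. Crossed pairing, run in 2 classes, gave 3513 in epithelium (under 1.5 times) and 531 in blood endothelium. Leaving out 1 library gave epithelium 1747 to 2489, mesenchyme 5206 to 6545, smooth muscle 2963 to 3671, pericytes 386 to 643, mesothelium 625 to 1057, blood endothelium 78 to 410 and myeloid cells 75 to 166 genes. Against mesenchyme it gave 5167 to 7296 for epithelium, 1048 to 1464 for smooth muscle, 3301 to 3950 for pericytes, 3979 to 5831 for mesothelium, 7927 to 8208 for blood endothelium and 5304 to 5886 for myeloid cells, and 2019 to 2503 and 1265 to 1595 for the epithelial and endothelial interactions; an organ left with 1 library was assumed to vary like the other. Depth limits the uterine epithelium, where 5 of the 9 genes (Igf1, Igfbp3, Igfbp4, Igfbp6 and Igfbp7) had under 50 UMIs in both libraries, and the uterine myeloid cells, where 6 (Igf1r, Irs1, Igfbp2, Igfbp3, Igfbp6 and Igfbp7) did.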
